A study of Mus musculus with 8 samples.

Results

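Genes that restrain the cell cycle or belong to the core p53 circuit, 9 in all of the 20660 named genes on the array, were followed in individual mouse embryos at embryonic day 8.5 (E8.5): the cyclin-dependent kinase (CDK) inhibitor genes *Cdkn1a*, *Cdkn1b*, *Cdkn2a*, *Cdkn2b*, *Cdkn2c* and *Cdkn2d*, and *Trp53*, *Mdm2* and *Ccng1*. They were chosen by name, and every non-control probe whose RefSeq accession belongs to 1 of these 9 genes was taken, which gave 12 of the 55681 distinct probes on the array. The study asked whether a father with low function of EED, a core subunit of Polycomb repressive complex 2 (PRC2), leaves altered gene expression in its offspring. All 8 embryos had the genotype *Eed* hypo/wt on a C57bl6/129 background, carrying 1 copy of the hypomorphic allele *Eed*l7Rn5-1989SB, and all had wild type mothers. The sire was *Eed* hypo/hypo for 4 embryos, called HOM father here, and *Eed* hypo/wt for the remaining 4, called HET father. Each group held 2 females and 2 males. The study's methods describe fewer males than there are embryos, hence some embryos of a group are offspring of the same male, and neither sire nor litter could be read from the labels. The 4 arrays of each father group lay on a slide of their own, so that father and slide cannot be told apart in any comparison below.

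CDK inhibitors stop the kinases that drive cells from G1 into S phase. The CIP/KIP proteins p21 (*Cdkn1a*) and p27 (*Cdkn1b*) bind cyclin-CDK complexes, and the INK4 proteins p16 (*Cdkn2a*), p15 (*Cdkn2b*), p18 (*Cdkn2c*) and p19 (*Cdkn2d*) bind CDK4 and CDK6. *Cdkn2a* also encodes ARF, which is read in another frame and restrains MDM2, the ubiquitin ligase that marks p53 for destruction. The neighbouring *Cdkn2a* and *Cdkn2b* genes are a classic target of Polycomb repression, whereas *Cdkn1a*, *Mdm2* and *Ccng1* are textbook targets that p53 activates after stress.

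No probe of the 9 genes differed by father at the limits used in the study, and none passed an adjusted p of 0.05. Probes entered the test when the scanner software flagged them as well above background on 4 or more of 8 arrays and their signal there reached the 20th percentile. That held for 8 of the 12 probes, which stand for 8 of the 9 genes, and all 8 were well above background on every array, as were 47.5% of all probes. *Cdkn2b* had no probe that passed. None of the 8 tested probes was called at an adjusted p below 0.01 with a change of at least 2-fold (limma, Benjamini-Hochberg over 29718 tested probes), compared with 1.27% of all tested probes. At an adjusted p below 0.05 without a limit on size, 0 had a higher and 0 a lower level in the HOM father group, against 12.3% and 8.69% of all tested probes. At an unadjusted p below 0.05 there were 2, the probes of *Cdkn1a* and *Trp53*, both with the lower mean in embryos of HOM fathers, where 17.4% of all tested probes passed in that direction. In no tested probe did the 4 embryos of 1 group all lie above the 4 of the other, a separation seen in 14.1% of all tested probes with the HOM father group higher and in 13% with it lower. The 8 differences, each the HOM father mean minus the HET father mean of the log2 signal, ran from -0.33 to 0.23, with 4 above and 4 below 0 and a median of 0.001, beside a median of -0.02 over all tested probes. In whole embryos, fewer cells that express a gene and less RNA per cell cannot be told apart.

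**Figure D1:**
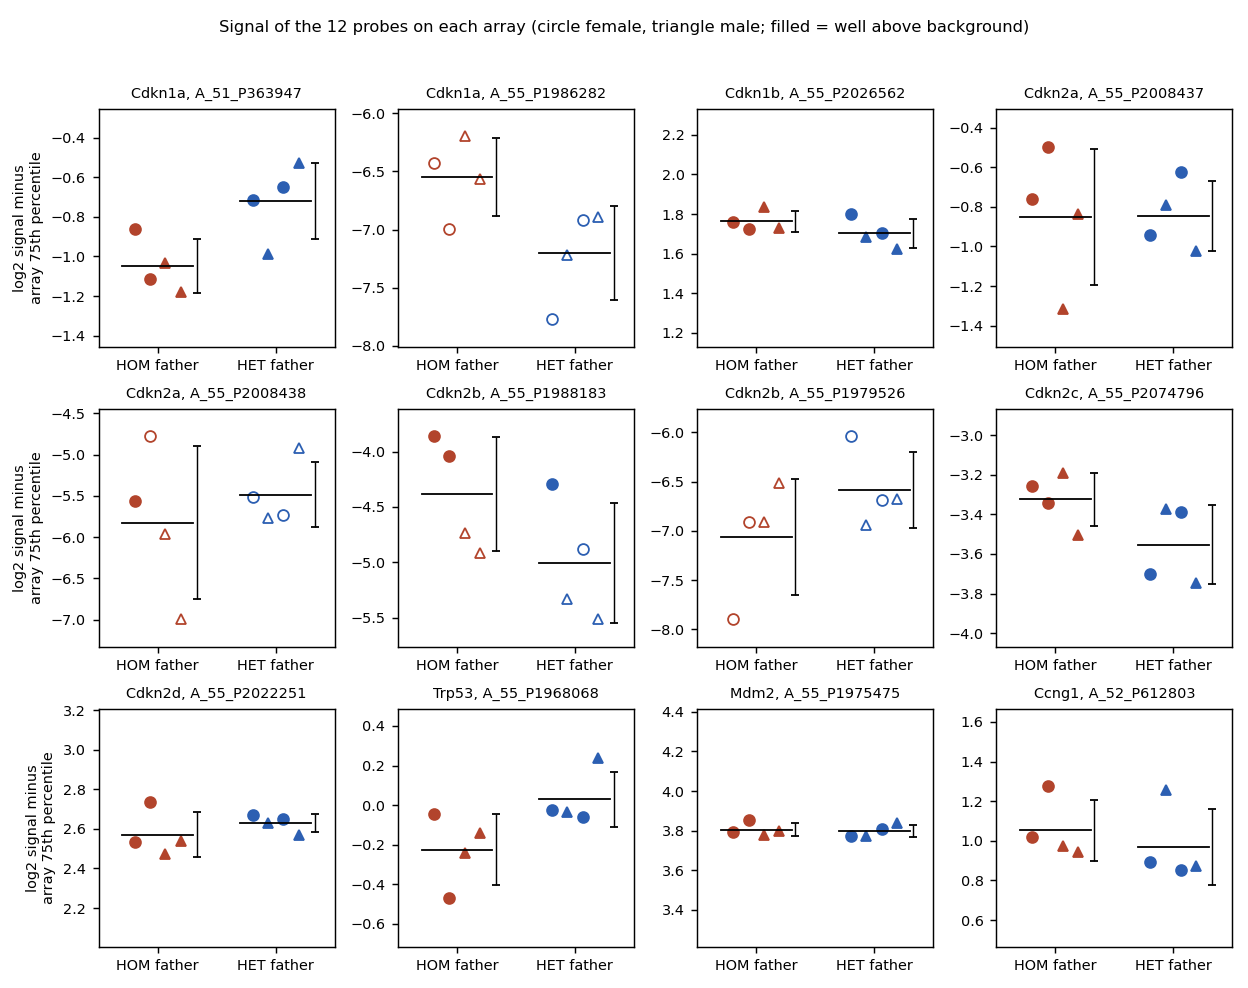
Log2 signal minus the 75th percentile of the array (vertical axis) for the 12 probes, 1 panel each with its own axis, in embryos of HOM fathers (red) and HET fathers (blue). Circles are females and triangles males, filled points were well above background, horizontal lines are group means and bars 1 SD (n = 4). The 2 groups overlap in all 8 tested probes, and the panels of *Cdkn2b* hold mostly open points.

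Signals are given here as log2 intensity minus the 75th percentile of the array; a value of 0 lies at that percentile. Levels of different probes cannot be compared with each other, so each gene was compared only between embryos.

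The p53 response element, a pair of adjoining copies of the decamer that p53 binds, was searched in the 300 bases around each annotated start (250 before, 50 after), with no spacer, at most 1 mismatch and the core C and G of both copies intact. The consensus reads the same on both strands, so 1 pass covers both. The 9 genes matched 12 windows in RefSeq (build GRCm38.p6). A match was found for *Cdkn1a* and *Ccng1*, in 1 window each, compared with 22 of 32851 windows (0.067%) genome-wide. These windows are shown because both genes serve as readouts of p53 in the results that follow, and capitals mark the matching element, which began 51 bases before the start in *Cdkn1a* and 195 bases before it in *Ccng1*. The *Cdkn1a* window is chr17:29090729-29091028 (+ strand), 1 of 2 annotated starts of that gene, and the *Ccng1* window is chr11:40755237-40755536 (- strand).
Cdkn1a: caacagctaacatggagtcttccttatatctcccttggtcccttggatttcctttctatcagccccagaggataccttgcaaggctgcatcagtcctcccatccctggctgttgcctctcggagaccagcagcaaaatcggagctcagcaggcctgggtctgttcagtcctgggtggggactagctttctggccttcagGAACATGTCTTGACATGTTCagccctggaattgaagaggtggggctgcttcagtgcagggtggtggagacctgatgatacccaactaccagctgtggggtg
Ccng1: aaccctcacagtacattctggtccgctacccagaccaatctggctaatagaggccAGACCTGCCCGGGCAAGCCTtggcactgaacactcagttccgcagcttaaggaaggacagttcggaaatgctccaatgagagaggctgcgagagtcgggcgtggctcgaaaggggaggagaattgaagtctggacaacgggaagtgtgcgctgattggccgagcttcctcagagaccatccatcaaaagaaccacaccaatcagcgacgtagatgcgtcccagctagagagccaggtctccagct
The other 10 windows held no match, those of *Mdm2*, *Trp53* and the other *Cdkn1a* start among them. This says only that these letters are not in those windows. Which of the 2 *Cdkn1a* starts the tested probe of that gene reads from was not determined.

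The windows of the *Cdkn2a* and *Cdkn2b* locus are shown because unmethylated CpG-rich starts are the sites where Polycomb complexes are usually found. Capitals mark CpG, and all are on the - strand. The first *Cdkn2a* start, at chr4:89294570-89294869, held 45 CpG in 300 bases, more than 98.1% of all windows, and its other start, at chr4:89282143-89282442, held 12. The *Cdkn2b* window, at chr4:89310983-89311282, held 18, against a median of 7 over all windows. The table does not say which probe reads from which start.
Cdkn2a, first start: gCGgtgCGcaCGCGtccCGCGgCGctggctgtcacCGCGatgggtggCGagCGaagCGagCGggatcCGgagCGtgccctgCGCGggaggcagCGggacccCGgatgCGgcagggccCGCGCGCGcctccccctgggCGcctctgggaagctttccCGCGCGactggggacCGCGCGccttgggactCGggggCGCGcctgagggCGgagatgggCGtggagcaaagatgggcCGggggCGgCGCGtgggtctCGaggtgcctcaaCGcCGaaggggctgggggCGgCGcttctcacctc
Cdkn2a, other start: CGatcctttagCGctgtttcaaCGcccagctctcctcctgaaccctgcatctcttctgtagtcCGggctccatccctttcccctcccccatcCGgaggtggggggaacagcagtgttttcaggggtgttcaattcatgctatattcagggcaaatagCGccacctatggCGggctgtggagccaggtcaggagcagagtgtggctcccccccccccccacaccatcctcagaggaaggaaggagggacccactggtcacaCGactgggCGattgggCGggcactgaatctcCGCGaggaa
Cdkn2b: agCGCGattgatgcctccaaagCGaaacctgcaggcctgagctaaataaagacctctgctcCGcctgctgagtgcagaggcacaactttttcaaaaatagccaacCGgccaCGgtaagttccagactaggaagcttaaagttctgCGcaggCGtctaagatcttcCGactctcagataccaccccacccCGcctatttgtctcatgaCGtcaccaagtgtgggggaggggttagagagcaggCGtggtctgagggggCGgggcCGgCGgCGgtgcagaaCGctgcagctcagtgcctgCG

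*Cdkn1a* showed the largest difference of the tested probes, and it did not pass the adjusted threshold. *Cdkn1a* encodes p21, the inhibitor through which p53 stops the cell cycle. Its probe A_51_P363947 (NM_007669) read -0.86, -1.11, -1.03 and -1.18 in replicates 1 to 4 of the HOM father group, and -0.71, -0.99, -0.65 and -0.53 in replicates 1 to 4 of the HET father group. The 3 lowest values all came from embryos of HOM fathers. The groups overlapped through 1 embryo on each side, since HOM father replicate 1 lay above HET father replicate 2. The mean was -1.05 ± 0.14 (SD, n = 4) compared with -0.72 ± 0.19, a difference of -0.33 (95% interval -0.58 to -0.07, limma adjusted p = 0.0737). On the linear scale this was a 1.25-fold higher level in embryos of HET fathers. The difference was similar in size in females (-0.31) and males (-0.35), each from 2 embryos against 2. Without HET father replicate 2 it was -0.42 with an adjusted p of 0.0273, and scaling each array to its median in place of the 75th percentile gave -0.52 with an adjusted p of 0.0193, where the median of all tested probes also moved to -0.21. Over the 20 alternative settings the adjusted p ran from 0.0193 to 0.197. Relative to the median of all tested probes, the *Cdkn1a* difference was -0.30 under both scalings. Each scaling subtracts a single value per array, so these values had to be equal. The relative difference was -0.34 with quantile normalisation and -0.26 with another background correction.

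The array carries 10 spots of this *Cdkn1a* probe, which share the RNA, labelling and hybridisation of that array and show its error between spots only. Within an array the SD over its spots was 0.021 to 0.049, with at least 9 of 10 spots used. Between embryos of 1 father group the SD was 0.137 (HOM father) and 0.193 (HET father), which also holds the error between arrays that spots do not measure. HET father replicate 2 lay apart from the other HET father embryos in its spots as a whole. The other *Cdkn1a* probe, A_55_P1986282 (NM_001111099), was well above background on 0 of 8 arrays, a class that held 33% of all probes.

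**Figure D2:**
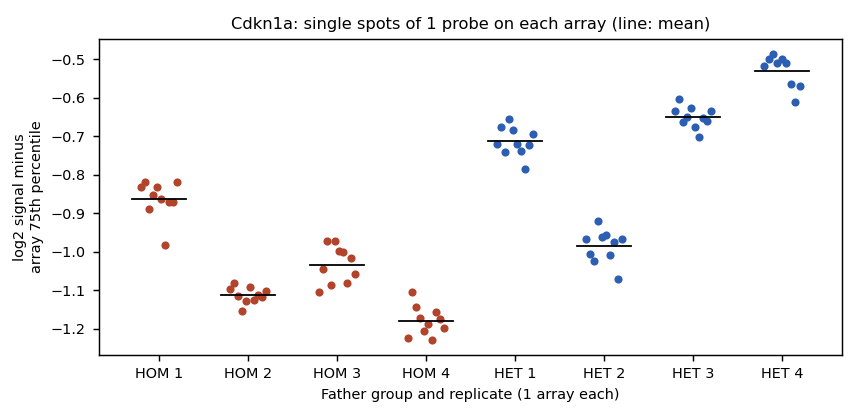
Log2 signal minus the 75th percentile of the array (vertical axis) for the single spots of *Cdkn1a* probe A_51_P363947 on each of the 8 arrays (horizontal axis, 1 embryo per array). Points are spots and lines their means, with HOM father arrays in red and HET father arrays in blue. HOM father replicate 1 and HET father replicate 2 are the embryos through which the groups overlap.

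*Cdkn1b*, which encodes p27 and holds cells in G1 when growth signals fall, was nearly level. Probe A_55_P2026562 read 1.76, 1.73, 1.84 and 1.73 in embryos of HOM fathers and 1.80, 1.68, 1.70 and 1.62 in embryos of HET fathers. The 3 lowest values were from HET father embryos, and the groups overlapped through HET father replicate 1, whose value lay above 3 of the 4 HOM father embryos. The difference was 0.06 (95% interval -0.07 to 0.19, limma adjusted p = 0.483), and its sign turned under scaling to the median (-0.13) and under another background correction (-0.03).

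The Polycomb-regulated locus gave a different picture for its pair of genes. *Cdkn2a* was well above background in all 8 embryos by 1 of its probes, and *Cdkn2b* in 3 of 8 embryos at most. *Cdkn2a* probe A_55_P2008437 (NM_009877) read -0.76, -0.50, -1.31 and -0.83 in embryos of HOM fathers and -0.94, -0.79, -0.62 and -1.02 in embryos of HET fathers. The highest and the lowest of the 8 values both came from HOM father embryos, so that the groups overlapped throughout. The means were -0.85 ± 0.34 and -0.85 ± 0.18 (SD, n = 4), a difference of -0.01 (95% interval -0.41 to 0.40, limma adjusted p = 0.987). The sign turned with the embryo left out, and the interval covers changes of either sign.

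The second *Cdkn2a* probe, A_55_P2008438, carries the same accession and differed in detection from the first. It was well above background on 1 of 8 arrays, that of HOM father replicate 1. By the weaker flag of the scanner software, which asks that a spot be positive and significant over its local background, it had signal on 7 of 8 arrays. The files do not give the position of either probe within the transcripts of the locus, so which of the p16 and ARF transcripts each one reads was not determined here.

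*Cdkn2b* encodes p15, the inhibitor induced by TGF-beta. Probe A_55_P1988183 (NM_007670) read -3.86, -4.04, -4.73 and -4.91 in embryos of HOM fathers and -4.29, -5.33, -4.88 and -5.51 in embryos of HET fathers. It was well above background in HOM father replicates 1 and 2 and HET father replicate 1, and by the weaker flag in 8 of 8. The other *Cdkn2b* probe, A_55_P1979526, was well above background in 0 of 8 embryos and had signal in 2 of 8 by the weaker flag. With only 3 arrays well above background A_55_P1988183 did not enter the comparison by father. With all probes of the array in the fit, its difference was 0.62 (95% interval -0.19 to 1.42, limma adjusted p = 0.427). Among the 4 females both HOM father embryos lay above both HET father embryos, and likewise among the 4 males, with differences of 0.64 and 0.60. With sex as a covariate, a setting chosen after the values were seen, the interval of the difference was 0.27 to 0.97 (limma adjusted p = 0.078), so that it did not pass.

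The 3 embryos with *Cdkn2b* well above background were all female. The 4 females read from -4.88 to -3.86 and the 4 males from -5.51 to -4.73 in probe A_55_P1988183, so the sexes overlapped through a female and a male of different father groups. Within each father group both females lay above both males. Both HOM father males shared the leading number of their sample identifiers, and so did HET father replicates 1 and 2. The meaning of that number is not stated, and the fit below did not include it. The female mean was higher by 0.85 (95% interval 0.51 to 1.20) with all probes in the fit and father as a covariate, and limma gave an adjusted p of 0.582 (unadjusted p = 8.58e-04). The sex difference was looked at after the values were seen. The same arrays of HOM father replicate 1 and HET father replicate 1 also had the largest shares of probes well above background, 59.7% and 57.4%, beside 50.6% to 54.5% on the other 6. By their slide positions they were also the only arrays in the first row of their slides. The part of either in the *Cdkn2b* values was not tested.

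The INK4 genes outside the locus were both well above background in all embryos. *Cdkn2c*, which encodes p18, read -3.26, -3.34, -3.19 and -3.50 in embryos of HOM fathers and -3.70, -3.38, -3.39 and -3.74 in embryos of HET fathers (A_55_P2074796). Its highest 3 values were all from HOM father embryos and its lowest 2 from HET father embryos. The difference was 0.23 (95% interval -0.03 to 0.49, limma adjusted p = 0.192), the largest positive difference of the tested probes, and it did not pass. *Cdkn2d*, which encodes p19, read 2.53, 2.74, 2.47 and 2.54 in embryos of HOM fathers and 2.67, 2.63, 2.65 and 2.57 in embryos of HET fathers (A_55_P2022251). Its HOM father values spanned those of the HET father group, with a difference of -0.06 (95% interval -0.21 to 0.09, limma adjusted p = 0.563).

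*Trp53* encodes p53 itself, whose activity is set mainly by the stability of the protein rather than by the level of its mRNA. Its probe A_55_P1968068 (NM_011640) read -0.05, -0.47, -0.24 and -0.14 in embryos of HOM fathers and -0.03, -0.04, -0.06 and 0.24 in embryos of HET fathers. The lowest 3 values were from HOM father embryos and the highest 3 from HET father embryos, and the groups overlapped where HOM father replicate 1 lay above HET father replicate 3. The difference was -0.25 (95% interval -0.50 to -0.003, limma adjusted p = 0.140). HET father replicate 4 stood apart from the rest of its group. Scaling to the median gave -0.44 with a limma adjusted p of 0.0174, where the 20 alternative settings ran from 0.0174 to 0.322. Relative to the median of all probes the *Trp53* difference was -0.23 under both scalings, which had to be equal there. The relative difference was -0.22 with quantile normalisation and -0.23 with another background correction.

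The p53 targets that feed back on p53 had differences closer to 0 than *Cdkn1a*. *Mdm2*, the ligase that degrades p53, read 3.79, 3.85, 3.78 and 3.80 in embryos of HOM fathers and 3.77, 3.77, 3.81 and 3.84 in embryos of HET fathers (A_55_P1975475). Its spread between embryos was the narrowest of the tested probes (SD 0.03 in each group), with a difference of 0.01 (95% interval -0.09 to 0.11, limma adjusted p = 0.925). *Ccng1*, which encodes cyclin G1, an early p53 target that recruits a phosphatase to MDM2, read 1.02, 1.28, 0.97 and 0.94 in embryos of HOM fathers and 0.89, 1.25, 0.85 and 0.87 in embryos of HET fathers (A_52_P612803). The 2 highest values were those of replicate 2 in each group, and the other 3 HOM father values lay above the other 3 HET father values. The difference was 0.08 (95% interval -0.18 to 0.35, limma adjusted p = 0.643), 0.28 in females and -0.11 in males. It was 0.18 without HET father replicate 2 and 0.0092 without HOM father replicate 2. The signs of *Mdm2* and *Ccng1* turned under scaling to the median and under another background correction.

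**Figure D3:**
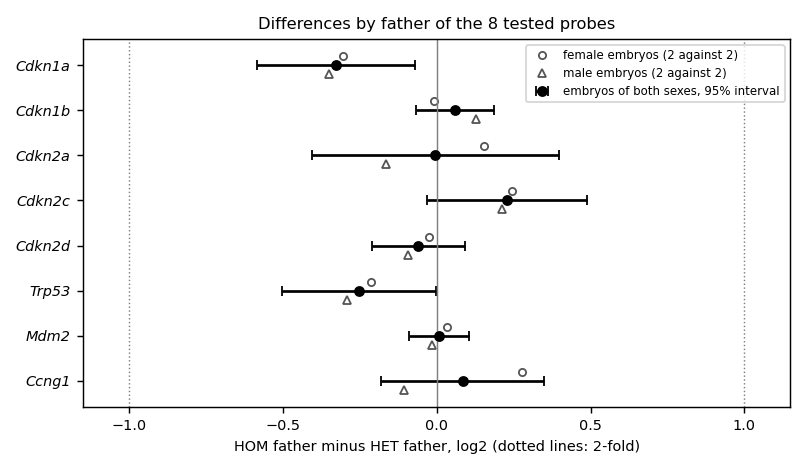
Difference of the log2 signal by father (HOM father mean minus HET father mean, horizontal axis) for the 8 tested probes. Filled points are all 8 embryos with the 95% interval of the limma fit, and open circles and triangles the differences among females and among males (2 embryos against 2). The intervals lie inside the dotted 2-fold lines, and the differences run from -0.33 (*Cdkn1a*) to 0.23 (*Cdkn2c*).

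Across the 8 embryos, the profile of *Trp53* was nearest to that of *Cdkn1a* among the 7 other genes with a tested probe (Pearson r = 0.77, a description over 8 embryos that share the father groups), while *Mdm2* (0.09) and *Ccng1* (-0.60) were not close to it. Of all named genes the 3 most like *Cdkn1a* were *Sgsm1* (0.98), *Batf* (0.97) and *Crygn* (0.97). Among 37 other p53 targets 23 had a positive r with *Cdkn1a*, with a median of 0.16. The share of positive r over all tested genes is not given here, so this count cannot be read as particular to p53 targets. The closest was *Trp53i11* (0.93), followed by *Bbc3* (0.78), the gene of the pro-apoptotic protein PUMA, and the farthest was *Zmat3* (-0.81).

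Sex made no difference that passed the test in the tested probes. Of the 8, 0 passed an adjusted p of 0.05 (lowest limma adjusted p = 0.914) and 0 an unadjusted p of 0.05, compared with 0.121% and 5.22% of all tested probes. For the interaction of father and sex 0 passed an adjusted p of 0.05 (lowest limma adjusted p = 1.00) and 0 an unadjusted p of 0.05, compared with 0.0639% and 4.52% of all tested probes. The nearest to a difference by sex was *Cdkn2a*, with a female mean of -0.71 and a male mean of -0.99 (limma adjusted p = 0.914).

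A wider list of 38 other p53 target genes was taken with 1 probe per gene, of which 37 were tested. At an adjusted p below 0.05, 3 rose and 3 fell in the HOM father group, where over all 14592 genes with a tested probe 7.02% were higher and 10.6% lower. The median difference of the list was -0.05, the same as over all genes. Those that rose were *Gtse1* (difference 0.52, limma adjusted p = 0.0017), which encodes a G2 and S phase protein that restrains p53, *Ephx1* (0.47, adjusted p = 0.000973), a detoxifying epoxide hydrolase, and *Ppm1d* (0.18, adjusted p = 0.0459), a phosphatase that switches p53 signalling off, whose sign turned under scaling to the median. The other tested probe of *Ephx1* had the opposite sign. Those that fell were *Abhd4* (-0.31, adjusted p = 0.0436), a lipase, *Trp53i11* (-0.20, adjusted p = 0.0344) and *Fdxr* (-0.19, adjusted p = 0.0487), the mitochondrial ferredoxin reductase. *Gtse1* and *Ephx1* passed under 19 of 20 alternative settings, and the other 4 under 5 to 11 of them. None of the 3 that fell passed with quantile normalisation. The brightest genes that did not pass were *Aen* (-0.17, adjusted p = 0.0914), *Ddit4* (-0.28, adjusted p = 0.172) and the pro-apoptotic *Bax* (0.10, adjusted p = 0.163).

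**Figure D4:**
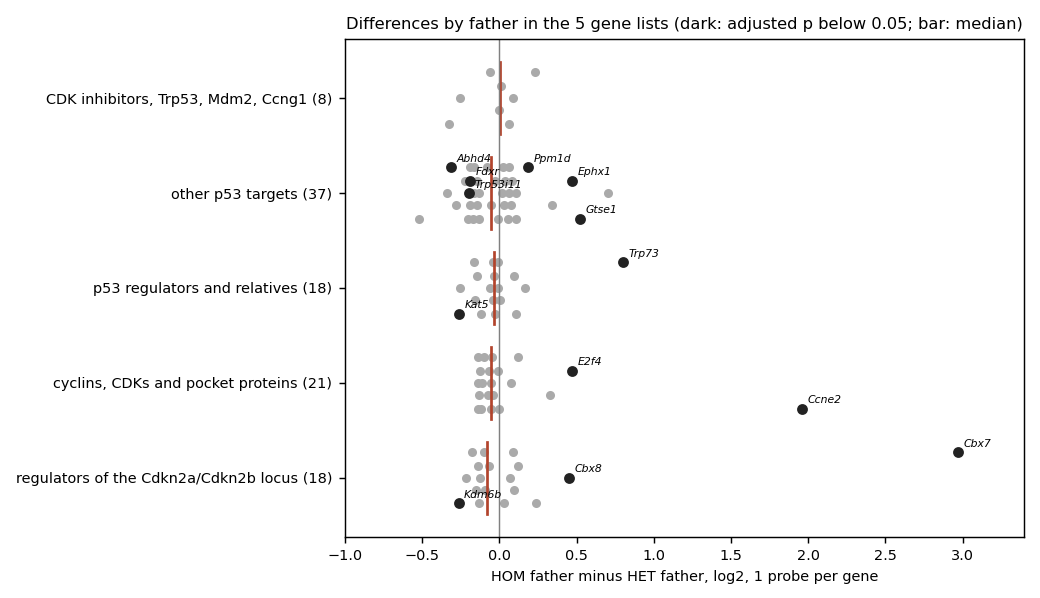
Difference of the log2 signal by father (HOM father mean minus HET father mean, horizontal axis) for each gene of the 5 lists, 1 probe per gene, with the number of tested genes in brackets. Dark points passed a limma adjusted p of 0.05 and are named, grey points did not, and red bars are medians. All 8 points of the top row are grey, and most grey points of the other rows lie close to 0, with *Cbx7* and *Ccne2* far to the right.

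Among 18 regulators and relatives of p53, 1 was higher and 1 lower in embryos of HOM fathers at an adjusted p below 0.05. Of all genes 7.02% were higher and 10.6% lower at that limit. Over the list the median difference was -0.04. *Trp73*, the p53 family member p73, rose from -2.33 ± 0.07 in embryos of HET fathers to -1.53 ± 0.08 in embryos of HOM fathers (SD, n = 4), a difference of 0.80 (95% interval 0.66 to 0.94, limma adjusted p = 0.000244). The groups did not overlap, and *Trp73* passed under 20 of 20 alternative settings. Of its 3 probes 1 was tested. *Kat5*, the acetyltransferase TIP60 that modifies p53, fell by 0.26 (adjusted p = 0.0143). *Rpl11*, a ribosomal protein that binds MDM2, was the brightest gene of the list and did not pass (-0.26, limma adjusted p = 0.0506). It had 3 tested probes, and only 1 of the others shared this sign.

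A list named for cyclins, CDKs and pocket proteins held 23 genes, of which 21 were tested. Besides those classes it held *E2f1* to *E2f5*, *Cdc25a*, *Cks1b*, *Skp2* and another inhibitor gene, *Cdkn1c*. In the HOM father group 2 of the tested genes rose and 0 fell, where 7.02% of all genes were higher and 10.6% lower. At an unadjusted p below 0.05 there were 3 higher and 2 lower, against 10.9% and 20.8% of all genes. The median difference of the list was -0.06. *E2f4*, the repressor partner of the pocket proteins, rose by 0.47 (95% interval 0.33 to 0.62, limma adjusted p = 0.00214). *Ccne2*, the cyclin E2 that pairs with CDK2, was well above background in 4 of 4 embryos of HOM fathers and 2 of 4 of HET fathers. It read from -3.88 to -3.08 and from -6.37 to -4.56, without overlap, and rose (limma adjusted p = 0.0106). With 2 HET father arrays it met the filter of 4 arrays only through the HOM father group, where it was high. The place of *Ccne2* among the 2 higher genes therefore supports nothing about the list. The difference of 1.96 includes 2 HET father values that were not well above background, and it was 0.90 with another background correction. *Cdk4*, the kinase the INK4 proteins bind, read 6.63 ± 0.09 and 6.73 ± 0.07 (difference -0.10, limma adjusted p = 0.275).

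Of 18 genes that regulate the *Cdkn2a* and *Cdkn2b* locus, 2 were higher and 1 lower in embryos of HOM fathers. This was at an adjusted p below 0.05, where 7.02% of all genes were higher and 10.6% lower. Over the list the median difference was -0.08. *Cbx7*, a chromodomain subunit of PRC1 that binds H3K27me3, was well above background in 4 of 4 embryos of HOM fathers and in 0 of 4 of HET fathers. It read from -4.16 to -2.68 in embryos of HOM fathers (mean -3.67 ± 0.67, SD) against a measured mean of -6.64 in the other group, so that its level was at least 2.78-fold higher (limma adjusted p = 0.00164). This limit sets the 4 dim values at the lowest signal that was well above background on their own arrays, or at their own signal where that was higher, and holds for this processing. With another background correction the log2 difference was 1.11 in place of 2.97. *Cbx7* entered the test only through the 4 HOM father arrays, so that a probe of its kind had to differ, and its place among the 2 higher genes supports nothing about the list. *Cbx8*, another chromodomain subunit of PRC1, rose by 0.45 (adjusted p = 0.00839), and *Kdm6b*, a demethylase of H3K27me3, fell by 0.27 (adjusted p = 0.0124). Beside them the *Cdkn2a* difference was -0.01 and *Cdkn2b* was well above background in 3 of 8 embryos.

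Marker genes gave the make-up of the samples. All 10 embryo markers, 8 of 8 yolk sac endoderm markers and 6 of 6 primitive erythroid markers were well above background on every array, and of 8 trophoblast and decidua markers 5 were, 1 was on none and 1 had no probe. The summed linear level of the trophoblast and decidua markers, in units of the 75th percentile of the array, ran from 10.5 to 34.9 in embryos of HOM fathers and from 17.3 to 25.2 in embryos of HET fathers. For the yolk sac endoderm markers it was 461 to 576 and 525 to 558, for the erythroid markers 615 to 792 and 788 to 822, and for the embryo markers 29.0 to 32.8 and 32.0 to 36.8. By single genes, *Prl3b1* (1.28) and *Psg17* (0.59) were higher and *Gcm1* (-1.07), *Apoa1* (-0.41), *Tbx6* (-0.32) and *Myl7* (-0.25) lower in embryos of HOM fathers at a limma adjusted p below 0.05. *Psg17* was well above background in 2 of 4 embryos of HET fathers, and with another background correction its difference was 0.16 (limma adjusted p = 0.133). It met the filter of 4 arrays only through the HOM father group, where it was high. Its place among the higher markers therefore supports nothing about the make-up of the samples. The part of these markers in the values above was not tested.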

How the data were processed

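Single-colour Agilent SurePrint G3 mouse arrays were analysed, 1 per embryo. The deposited scanner tables hold spot intensity on a linear scale, made by the authors with Agilent Feature Extraction 11.0.1.1, which subtracts background. They had not been normalised between arrays. The deposited flags (well above background, positive and significant, outlier) are other values of 0 or 1. The authors' series table held the same intensity, within 0.497%. Each array had 59305 non-control spots and none was saturated. Arrays give no count of molecules, and the number of embryos limits the precision.

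Here log2 of the processed signal minus the 75th percentile of the array was computed, outlier spots were dropped, and spots of a probe were averaged. Probe accessions without versions were named from a RefSeq gene table (GRCm38.p6), which named 27235 probes. The array grid follows mm9, so no probe coordinates are given. Differences were tested with limma 3.58.1 in R 4.3.3 (lmFit and eBayes, two-sided) over all tested probes, with Benjamini-Hochberg adjustment. The father comparison had no covariate, and the sex comparison had father as one. The procedure was tested on simulated arrays with known changes. Normexp used the median spot signal with an offset of 50, in place of the mean signal.

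A gene's value is its tested probe with the highest mean. All probes of the 9 genes are given. From each other list, genes at an adjusted p below 0.05 and up to 3 of the brightest others are named. The genes and lists were chosen with earlier results of these data known. Embryos are separate animals, but shared sires could not be fitted.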

Additional observations from a re-analysis of the deposited data

Results flagged for a closer look

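Of 24 sets of 4 embryos (12 probes in 2 father groups), 2 held an embryo apart from the other 3 by Dixon's test, where chance gives about 1 in 20 sets, or 1.2 here. *Trp53* read 0.24 in HET father replicate 4, while the other 3 embryos of that group lay between -0.06 and -0.03. *Ccng1* read 1.25 in HET father replicate 2, while the other 3 lay between 0.85 and 0.89. HET father replicate 2 also had the lowest *Cdkn1a* value of its group (-0.99).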

How the results depend on the processing

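The counts of the 9 genes called by father, higher by father, and different by sex or in the interaction were 0 under every alternative that was run. The count lower by father was 0 except under median scaling, where it was 2 (*Cdkn1a* and *Trp53*), and when embryos were left out in turn it was 0 to 1, with 1 (*Cdkn1a*) without HET father replicate 2. Reversed signs were those of *Cdkn1b* (-0.13), *Mdm2* (-0.18), *Ccng1* (-0.11), *Ppm1d* (-0.00597), *Bax* (-0.087) and *Kdm2b* (-0.16) under median scaling, where all tested probes had a median of -0.21, of *Cdkn1b* (-0.026), *Mdm2* (-0.0642) and *Ccng1* (-0.0222) under normexp, of *Cdk4* (0.00121) under quantile normalisation, and of *Cdkn2a* (0.0211) with the identifier number as a random block. With embryos left out in turn, *Cdkn2a* ran from -0.12 to 0.15 and *Mdm2* from -0.00881 to 0.0204.

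For the wider lists, p53 targets lower by father were 3, but 0 under quantile normalisation, without the filter and with slide position as a block, 15 under median scaling, 4 under normexp, and 1 with sex as a covariate and with the identifier number as a random block. With embryos left out in turn they were 0 to 4, that is 0 without HOM father replicates 3 or 4 or HET father replicates 3 or 4, 1 without HOM father replicate 1 or HET father replicate 2, and 4 without HOM father replicate 2. Those higher were 3, but 4 under quantile normalisation, 5 under normexp, 0 with slide position as a block, and 2 under median scaling, the authors' value table, no filter, sex as a covariate, the identifier number as a random block and with any embryo left out. Genes of the cyclin, CDK and pocket protein list that were lower numbered 0, but 8 under median scaling, 1 under normexp and 1 with probes of a gene averaged. Those higher were 2, but 1 with only probes well above background on all arrays and with slide position as a block, 3 under normexp and with an intensity trend and robust variance, and 2 to 3 with embryos left out in turn. Regulators and relatives of p53 were 2, but 7 under median scaling, 1 without the filter and with slide position as a block, 3 under normexp, with only probes well above background on all arrays and with an intensity trend and robust variance, and 2 to 3 with embryos left out in turn. Regulators of the *Cdkn2a* and *Cdkn2b* locus were 3, but 8 under median scaling, 5 with an intensity trend and robust variance, 4 under quantile normalisation, and 2 without the filter, with only probes well above background on all arrays and with slide position as a block. With embryos left out in turn they were 3 to 5, and 5 without HOM father replicate 2. The cause of these shifts was not tested. *Cbx7* and *Ccne2* could not be fitted with only probes well above background on all arrays, which removed both.

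With the replicate block, p53 targets lower were 1 in place of 3, those higher were 2 in place of 3, and regulators and relatives of p53 were 1 in place of 2. Same-numbered embryos of replicates 2 to 4 also shared the position on their slides, and those of replicates 1 and 4 shared their sex. Correlations of deviations were 0.19, -0.09, -0.13 and 0.15 for replicates 1 to 4. The part of position and sex in them was not tested.

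By the weaker flag, *Cdkn2a* probe A_55_P2008438 had signal on 7 arrays in place of 1, and *Cdkn2b* probes A_55_P1988183 and A_55_P1979526 on 8 in place of 3 and on 2 in place of 0. How close these spots lie to background limits what can be said of *Cdkn2b*.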
